A study of Mus musculus with 20 samples.

Results

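The genes described here encode proteins of the sarcomere's Z-disc, where neighbouring sarcomeres meet, and proteins that anchor titin or tie the Z-disc to the rest of the cell. They are Tcap, Myot, Myoz2, Ldb3, Actn2, Nebl, Ttn, Des and Myom2, taken by gene symbol from the deposited count files. All 9 were found among the 24059 genes of those files, and all 9 were among the 14007 genes that passed the filter on low counts. The RNA was that of the left ventricular free wall, taken from male C57BL/6 mice of about 9 to 13 weeks. Each of the 4 groups had 5 libraries. GRflox mice have the genotype GRfl/fl, that is, both copies of Nr3c1, the gene of the glucocorticoid receptor, are floxed, and no Cre is present. CardioGRKO mice, their littermates, have the genotype GRfl/fl alphaMHCCre/+, in which the alpha myosin heavy chain promoter drives Cre recombinase in cardiomyocytes. Every mouse of the study thus carries the floxed alleles, and no group carries Cre alone, so loss of the receptor and presence of Cre cannot be told apart. Hearts were taken at zeitgeber time 0 (ZT0, lights on) or 12 (ZT12, lights off).

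In a sarcomere, alpha-actinin (Actn2) crosslinks the ends of the thin filaments at the Z-disc. Titin (Ttn) is a giant elastic protein that runs from the Z-disc to the M-band, and telethonin (Tcap, also called titin-cap) binds its Z-disc end. Myotilin (Myot), myozenin 2 (Myoz2, also called calsarcin-1) and cypher (Ldb3) are alpha-actinin partners, and myozenin 2 also binds the phosphatase calcineurin. Nebulette (Nebl) is the cardiac relative of nebulin and joins thin filaments to the Z-disc. Desmin (Des) is the intermediate filament that links Z-discs to each other and to the cell membrane. Myomesin 2 (Myom2, M-protein) crosslinks thick filaments and binds titin at the M-band, so it is not a Z-disc protein itself.

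Nr3c1, the targeted gene, lay between 95.2 and 122 CPM in the GRflox libraries and between 46.7 and 61.1 CPM in the CardioGRKO libraries, with no overlap. CPM are counts per 1e6 of the library total after TMM scaling, which assumes that most genes do not change. The libraries held 5854462 to 37648421 counts (median 23223656). The shallowest, replicate 1 of CardioGRKO at ZT0, also carries a number in its file header that the remaining 19 do not share. The replicates are numbered without being tied to named animals, so p-values measure the spread between libraries, which may in part be technical. All 12 cardiomyocyte markers examined had counts in every group, which fits the labelled tissue. Their summed level was 140060 to 144380 CPM in GRflox and 126130 to 135320 CPM in CardioGRKO at ZT0, and 141650 to 149130 against 121650 to 139360 CPM at ZT12. This sum was thus lower in every CardioGRKO library than in any GRflox library of the same time. The sum of 9 endothelial markers was also lower in CardioGRKO without overlap, at 1422 to 1546 against 1610 to 1712 CPM at ZT0 and 1198 to 1380 against 1408 to 1535 CPM at ZT12. The part of these shifts in the members' differences was not tested. In whole tissue, fewer cells of a type and less RNA per cell cannot be told apart.

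Per kilobase of exon the members fell into 3 tiers, on the scale of CPM per kilobase averaged over the 20 libraries. Myoz2 (1513), Tcap (1172), Actn2 (1116) and Des (1037) were the most abundant. Myom2 (386) and Ldb3 (338) came next, and Ttn (40.5), Myot (19.3) and Nebl (11.9) last. The ranges over libraries of neighbours in this order overlapped, except between Des and Myom2 and between Ldb3 and Ttn. Tcap moved most within this order: it held 614 ± 65.0 CPM per kilobase in GRflox at ZT0 and 2024 ± 55.0 at ZT12 (SD, n = 5). The exon length of Ttn, 113588 bases over its annotated coding transcripts, sets its place, and the counts sum all of its isoforms. Together the 9 genes took 1.64% to 2.2% of all counts in a library.

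Upstream sequence is shown for the 3 members, of 6 searched, that hold a MEF2 match (Ttn and Myoz2) or the E-box CACGTG (Actn2). MEF2 factors act in muscle, and CACGTG is a sequence that the clock's activators bind. No link between these letters and the levels was tested. Each run is the 250 bases before an annotated start of the gene in RefSeq's GRCm38.p6, 5′ to 3′ on the gene's strand, which is the minus strand for all 3. The Ttn run is chr2:76982548-76982797, the Myoz2 run chr3:123034988-123035237 and the Actn2 run chr13:12340733-12340982. Capitals mark a match to the MEF2 motif in Ttn and Myoz2, and the E-box CACGTG in Actn2.
Ttn: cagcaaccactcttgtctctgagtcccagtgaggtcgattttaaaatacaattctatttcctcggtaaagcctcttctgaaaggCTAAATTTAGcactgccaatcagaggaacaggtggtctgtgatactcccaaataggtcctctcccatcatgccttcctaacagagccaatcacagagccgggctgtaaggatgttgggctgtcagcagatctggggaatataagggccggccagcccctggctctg
Myoz2: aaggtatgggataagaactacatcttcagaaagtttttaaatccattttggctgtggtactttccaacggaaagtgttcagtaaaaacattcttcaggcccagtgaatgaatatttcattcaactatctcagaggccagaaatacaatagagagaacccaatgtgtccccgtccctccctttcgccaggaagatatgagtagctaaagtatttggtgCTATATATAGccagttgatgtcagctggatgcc
Actn2: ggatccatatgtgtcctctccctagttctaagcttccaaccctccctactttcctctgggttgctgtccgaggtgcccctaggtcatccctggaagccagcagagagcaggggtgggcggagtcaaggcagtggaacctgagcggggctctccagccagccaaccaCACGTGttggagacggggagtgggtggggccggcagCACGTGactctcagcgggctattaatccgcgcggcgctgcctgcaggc
Counted from its first base, the MEF2 match lies 166 bases before the start of Ttn and 33 before that of Myoz2. Actn2 holds CACGTG at 84 and at 48 bases before its start.

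The same windows were searched for 9 motifs on both strands in 6 members, in 10 windows in all: Myoz2, Ldb3, Actn2, Nebl, Ttn and Des. Tcap, Myot and Myom2 had no window in this search, which left out chromosome 18, where Myot lies. MEF2 motif matches were in 2 of the 10 windows (Ttn and Myoz2) and in 2.92% of all 32851 windows of 27025 genes. CACGTG was in the Actn2 window and in 6.02% of all windows. The general E-box CANNTG, which includes CACGTG, was in 6 of the 10 and in 66.2% of all. The letters TGTTCT, the core of a glucocorticoid receptor site, were in both windows of Ldb3, which overlap each other, and in 16.1% of all. The pair AGAACA and TGTTCT, 3 bases apart, was in none of the 10 and in 0.00913% of all. The D-box letters TTATGTAA (0.819% of all) and TTATGCAA (0.694%) and the letters TATAAA (12.4%) were also absent from the 10 windows. The CArG box, the motif of serum response factor, was in both Ldb3 windows and 1 Nebl window, and in 1.47% of all. A match is a description of letters, and no match says only that these letters are not in this window.

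**Figure D1:**
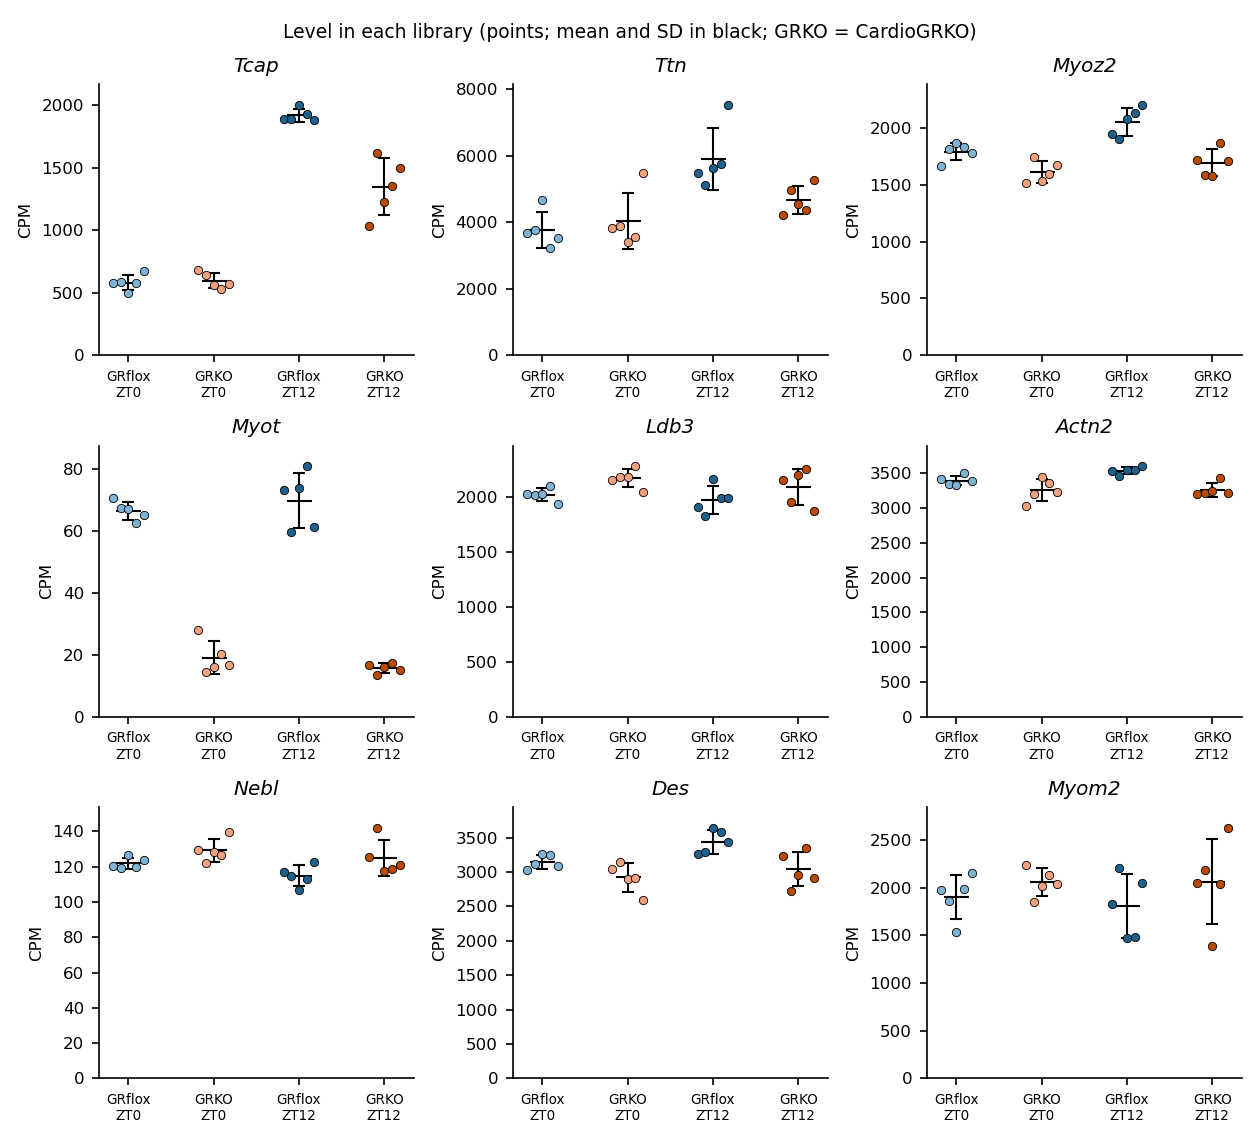
Level of each of the 9 genes in the 20 libraries, in CPM (y axes from 0), by group on the x axes; points are libraries, and black bars the mean and SD of 5 libraries. Tcap is high in both ZT12 groups, from 1037 to 2004 CPM, and Myot is low in both CardioGRKO groups, from 13.5 to 28.0 CPM.

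A gene was called when its Benjamini-Hochberg adjusted p from edgeR's quasi-likelihood F-test was under 0.05. More members were called between genotypes at lights off than at lights on, as were more of all tested genes (2951 against 2060). No member's genotype difference was itself called as changed between ZT0 and ZT12 in edgeR. At ZT0 1 of 9 members was called, Myot, which was lower, against 7.35% of all tested genes called lower and 7.36% called higher. At ZT12 6 of 9 were called, all lower (Myot, Tcap, Ttn, Myoz2, Des and Actn2), against 10.7% of all tested genes lower and 10.4% higher. In 4 of those 6, all but Ttn and Des, the libraries of the genotypes did not overlap, against 7.22% of all tested genes lower without overlap. The members and lists were chosen with earlier results of these data known, so their shares, here and below, are a description and not a test. The median log2 fold change of the 9 was 0.04 at ZT0 and -0.18 at ZT12, and that of all tested genes was -0.01 and 0.00. Of the 12 cardiomyocyte markers, 2 were higher and 6 lower at ZT0, and 1 was higher and 7 lower at ZT12. Their medians were -0.12 and -0.17, so the lower levels at ZT12 were not particular to the members.

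Which members were called at ZT12 depended on the scaling of the libraries, and for Actn2 and Des so did the direction. With library totals alone, 3 members were called lower (Myot, Tcap and Myoz2) and 2 higher (Ldb3 and Nebl). When each library was scaled to its summed cardiomyocyte markers, 2 were lower (Myot and Tcap) and 3 higher (Ldb3, Nebl and Myom2). Under that scaling the median log2 fold change of all tested genes was 0.11 at ZT0 and 0.18 at ZT12, against -0.01 and 0.00 with TMM. The share of calls that were higher moved from 50.0% to 89.0% at ZT0 and from 49.2% to 92.0% at ZT12. With library totals those shares were 72.0% and 78.4%. The log2 fold changes of Tcap and Myot at ZT12 were -0.34 and -1.96 under the marker scaling, still past the threshold.

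**Figure D2:**
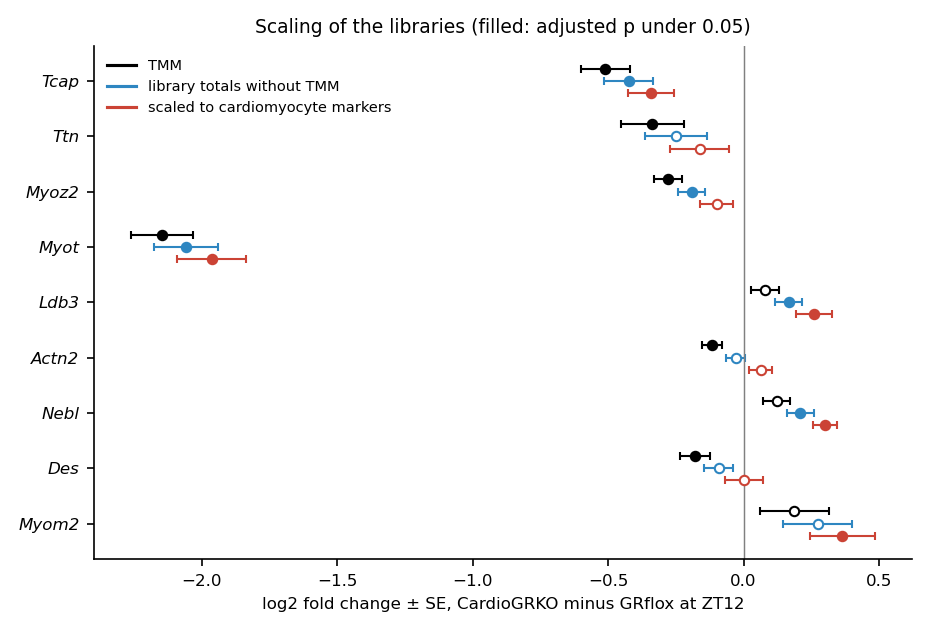
Log2 fold change ± SE of CardioGRKO minus GRflox at ZT12 (x axis) for the 9 genes (y axis) under 3 scalings, with filled points for an adjusted p under 0.05. Each gene shifts to the right from TMM to library totals to cardiomyocyte markers, and Actn2 and Des cross 0 under the last.

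Tcap, the titin cap, lies on chromosome 11 at 98383811 to 98384953 in GRCm38.p6 (mm10). At ZT0 its level was 576, 588, 498, 574 and 672 CPM in GRflox and 683, 641, 558, 533 and 572 CPM in CardioGRKO, and the groups overlapped. At ZT12 it was 1887, 1890.5, 2004, 1932 and 1879 CPM in GRflox and 1037, 1620.0, 1227, 1350.1 and 1501 CPM in CardioGRKO. Every ZT12 library lay above every ZT0 library, and at ZT12 every CardioGRKO library lay below every GRflox library. The 5 CardioGRKO libraries at ZT12 were also spread more widely, with a coefficient of variation of 17.0% against 2.72% in GRflox; this difference in spread was not tested.

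The rise of Tcap from ZT0 to ZT12 was 3.30-fold in GRflox (log2 1.72 ± 0.09, edgeR adjusted p = 3.18e-12) and 2.26-fold in CardioGRKO (log2 1.17 ± 0.09, adjusted p = 5.21e-09). The genotypes differed at ZT12 by a log2 fold change of -0.51 ± 0.09 (edgeR adjusted p = 0.000216) and at ZT0 by 0.04 ± 0.09 (adjusted p = 0.855, 95% interval -0.15 to 0.23). Whether the genotype changed the rise was tested as an interaction, whose log2 value was -0.55 ± 0.13. Its adjusted p was 0.103 in edgeR (unadjusted 0.000312) and 0.0103 in DESeq2, so the call rested on the tool. Leaving out GRflox ZT0 replicate 5 gave an edgeR adjusted p of 0.0449, and leaving out CardioGRKO ZT12 replicate 2 gave 0.025; the other 18 such fits stayed above 0.05.

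The tested genes most alike Tcap in log2 CPM over the 20 libraries were Tef (Pearson r = 0.976), Rhobtb1 (0.966) and Timp3 (0.965), given as a description. Tef encodes a clock output factor that binds D-boxes, and Timp3 an inhibitor of metalloproteases. These correlations came mainly from the groups: after each group's mean was removed they were 0.440, 0.321 and 0.288. Tef rose by log2 1.75 ± 0.08 in GRflox and 1.17 ± 0.08 in CardioGRKO, with an interaction of -0.58 ± 0.11 (edgeR adjusted p = 0.0129), which missed the threshold under marker scaling (0.0528). Rhobtb1 rose by 2.02 ± 0.12 and 1.12 ± 0.12, with an interaction of -0.89 ± 0.17 (edgeR adjusted p = 0.0209). Timp3 rose by 1.20 ± 0.07 and 1.11 ± 0.07, and its interaction did not pass (-0.09 ± 0.09, edgeR adjusted p = 0.95).

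Ttn lies on chromosome 2 at 76703980 to 76982557 and has the most exon bases of the 9. At ZT0 its level was 3688, 3775, 4679.8, 3217 and 3532 CPM in GRflox and 3837, 3904, 3401, 3560.3 and 5489 CPM in CardioGRKO. At ZT12 it was 5478, 5136, 5629, 5749.8 and 7546 CPM in GRflox and 4212, 4963, 4568, 4387 and 5261 CPM in CardioGRKO. In GRflox all ZT12 libraries lay above all ZT0 libraries, while in CardioGRKO the times overlapped, with replicate 5 the highest of its group at both times.

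The rise of Ttn in GRflox was 1.56-fold (log2 0.64 ± 0.12, edgeR adjusted p = 0.000342). In CardioGRKO the log2 difference was 0.21 ± 0.12 (edgeR adjusted p = 0.296, 95% interval -0.03 to 0.45). Without CardioGRKO ZT0 replicate 5, its highest library, that value was 0.34 (edgeR adjusted p = 0.0442). The interaction was -0.43 ± 0.16 and did not pass (edgeR adjusted p = 0.623), so the rise is not shown to differ between the genotypes. At ZT12 Ttn was lower in CardioGRKO by a log2 fold change of -0.34 ± 0.12 (edgeR adjusted p = 0.0421), with overlapping libraries. That call ended with DESeq2 (adjusted p = 0.0703), library totals (edgeR adjusted p = 0.109) and marker scaling (0.232). It also ended without GRflox ZT0 replicate 2, GRflox ZT12 replicate 3, 4 or 5, or CardioGRKO ZT12 replicate 1, 3 or 4 (edgeR adjusted p from 0.0502 to 0.158).

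Ttn varied between replicates more than most genes, with a biological coefficient of variation of 13.1% against a median of 8.22% over the tested genes. The gene most alike it was Malat1, a nuclear long noncoding RNA (r = 0.914 over 20 libraries, 0.894 after removing group means), followed by Huwe1 (0.898) and Kmt2a (0.889). Malat1 was 549 to 718 CPM in GRflox at ZT0 and 684 to 961 CPM at ZT12, and 589 to 821 and 604 to 787 CPM in CardioGRKO. It rose in GRflox by log2 0.33 ± 0.10 (edgeR adjusted p = 0.0208) and had -0.18 ± 0.10 between genotypes at ZT12 (adjusted p = 0.209). GRflox ZT12 replicate 5, the highest library for Ttn, was also the highest for Malat1, and so was CardioGRKO ZT0 replicate 5 within its group. The libraries were made from polyadenylated RNA, and the part of RNA quality in the level of Ttn was not tested. Over 423 tested genes with at least 10000 exon bases, the median log2 difference from ZT0 to ZT12 in GRflox was 0.01. Of these long genes 79 were called higher and 55 lower at ZT12, against 8.13% and 9.17% of all tested genes. The correlation of Ttn with the mean of those long genes was 0.538 over the libraries and 0.616 after removing group means. The latter was not particular to Ttn: over the 9 members it ran from -0.709 (Ldb3) to 0.635 (Nebl), with Myom2 at 0.525.

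**Figure D3:**
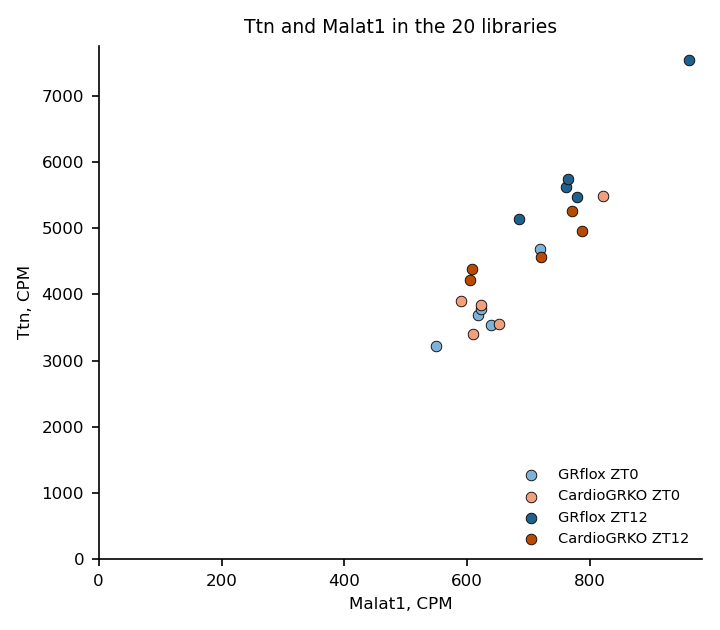
Level of Ttn (y axis, CPM) against that of Malat1 (x axis, CPM) in the 20 libraries, coloured by group. Libraries high in one are high in the other (r = 0.914), and the library at the upper right is GRflox ZT12 replicate 5, with 7546 and 961 CPM.

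Titin-binding and M-band proteins were examined as a list of 20, all of which passed the filter. At ZT0 3 were higher and 4 lower in CardioGRKO, and at ZT12 4 were higher and 7 lower, with a median log2 fold change of -0.03 and -0.08. Of all tested genes 7.36% were higher and 7.35% lower at ZT0, and 10.4% and 10.7% at ZT12, with medians of -0.01 and 0.00. Ankrd1, a stretch-responsive repeat protein that binds titin's N2A region, had the largest rise, 1.80 ± 0.21 at ZT0 and 1.56 ± 0.21 at ZT12 (edgeR adjusted p = 1.7e-06 and 5.2e-06). Its relative Ankrd23 rose by 0.85 ± 0.13 at ZT12 (edgeR adjusted p = 2.8e-05) and fell from ZT0 to ZT12 in GRflox (-1.14 ± 0.13, adjusted p = 7.1e-07). Obsl1, a cytoskeletal linker, was higher by 0.25 ± 0.05 and 0.35 ± 0.05. With markers as the scale, the ZT12 calls numbered 7 and were all higher, and with library totals 6 higher and 3 lower.

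From ZT0 to ZT12 in GRflox, 3 of the 20 titin-binding genes rose and 2 fell, against 8.13% of all tested genes rising and 9.17% falling. Next to Ankrd23, those with the smallest p included Sqstm1, an autophagy receptor (0.43 ± 0.07), and Trim54, a ubiquitin ligase of the M-band and Z-disc (0.33 ± 0.06). In CardioGRKO 1 rose and 2 fell, against 4.42% of all tested genes rising and 4.75% falling. The regulators of splicing of sarcomere transcripts, a list of 11, had 2 rising and 4 falling in GRflox, against the same 8.13% and 9.17%. Rbm20, the main regulator of titin splicing, rose in both genotypes, by 0.21 ± 0.05 (GRflox, edgeR adjusted p = 0.0061) and 0.20 ± 0.05 (CardioGRKO, 0.019), and was not called between genotypes. Rbfox1, a muscle splicing factor, was lower in CardioGRKO by -0.52 ± 0.07 at ZT0 and -0.58 ± 0.07 at ZT12 (edgeR adjusted p = 1.8e-05 and 2.2e-06). Gene-level counts hold no measure of which titin isoform was made.

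Myoz2 lies on chromosome 3 at 123006206 to 123035003 and rose modestly in GRflox. Its level there was 1668, 1815, 1867, 1828 and 1778 CPM at ZT0 and 1948, 1905, 2082, 2126 and 2205 CPM at ZT12, with no overlap. In CardioGRKO it was 1514, 1746, 1532, 1596 and 1672 CPM at ZT0 and 1717, 1582, 1581, 1869.6 and 1708 CPM at ZT12, and the times overlapped. The rise in GRflox was 1.15-fold (log2 0.20 ± 0.05, edgeR adjusted p = 0.0111). In CardioGRKO the difference was 0.07 ± 0.05 (adjusted p = 0.484), and the interaction, -0.13 ± 0.07, did not pass (adjusted p = 0.893).

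Between genotypes Myoz2 was lower in CardioGRKO at ZT12 by a log2 fold change of -0.28 ± 0.05 (edgeR adjusted p = 0.000402), and the libraries did not overlap. At ZT0 the value was -0.15 ± 0.05 (edgeR adjusted p = 0.055), which passed with DESeq2 (0.0412). It also passed in edgeR when GRflox ZT0 replicate 1, CardioGRKO ZT0 replicate 2 or CardioGRKO ZT12 replicate 4 was left out (adjusted p from 0.033 to 0.0436). With marker scaling the ZT12 value was -0.10 and the rise in GRflox 0.16, and neither passed (edgeR adjusted p = 0.185 and 0.0723). Its relatives Myoz1 and Myoz3, the skeletal muscle forms, were under the filter, at 0.248 and 0.0185 CPM on average. The gene most alike Myoz2 was Tmtc1 (r = 0.931 over 20 libraries), which rose in both genotypes and was lower in CardioGRKO at both times.

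Of 12 genes of calcineurin signalling, the pathway that myozenin 2 tethers at the Z-disc, 1 was higher and 1 lower at ZT0, and 1 higher and 4 lower at ZT12. The shares of all tested genes were 7.36% higher and 7.35% lower at ZT0, and 10.4% and 10.7% at ZT12. Rcan1, a feedback inhibitor of calcineurin and its transcriptional target, was the higher one both times, by 0.78 ± 0.13 and 0.57 ± 0.13 (edgeR adjusted p = 0.00016 and 0.0031). It also fell from ZT0 to ZT12, by -1.04 ± 0.13 in GRflox and -1.25 ± 0.13 in CardioGRKO. Its relative Rcan2 was lower at ZT12 (-0.30 ± 0.06), as were the calcineurin subunits Ppp3cb (-0.20 ± 0.05) and Ppp3cc (-0.22 ± 0.06). Those 3 lost their calls under marker scaling, while Rcan1 kept its direction.

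Myot had the largest genotype difference of the members, and was itself not called over time. The gene lies at 44334053 to 44355740 of chromosome 18. In GRflox it was at 70.4, 67.3, 66.9, 62.4 and 65.0 CPM at ZT0 and at 73.1, 59.6, 73.7, 80.8 and 61.2 CPM at ZT12. In CardioGRKO it was at 28.0, 14.4, 16.1, 20.2 and 16.6 CPM at ZT0 and at 16.6, 13.5, 15.9, 17.5 and 14.96 CPM at ZT12. The lowest GRflox library thus held more than 2 times the highest CardioGRKO library, replicate 1 at ZT0, which is also the shallowest.

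The log2 fold change of Myot was -1.86 ± 0.12 at ZT0 (3.64-fold lower, edgeR adjusted p = 1.16e-10) and -2.15 ± 0.11 at ZT12 (4.42-fold lower, adjusted p = 5.17e-12). From ZT0 to ZT12 it was 0.07 ± 0.11 in GRflox (edgeR adjusted p = 0.713) and -0.21 ± 0.12 in CardioGRKO (adjusted p = 0.326). The genotype values stayed between -1.97 and -1.74 at ZT0, and between -2.20 and -1.96 at ZT12, over all scalings, tools and left-out libraries tried. The interaction was -0.28 ± 0.16 (edgeR adjusted p = 0.887). The CardioGRKO libraries held 170 to 668 raw counts of Myot each, so the transcript was still measured there.

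Myotilin belongs with palladin and myopalladin to a family of immunoglobulin-domain proteins that bind alpha-actinin. Mypn (363 CPM on average) and Palld (271 CPM) were more abundant than Myot (42.7 CPM) and were not called between genotypes. Mypn had -0.06 at ZT0 and -0.01 at ZT12, and Palld 0.00 and -0.15; the difference from Myot was not tested. The genes most alike Myot were Ogdhl (r = 0.978 over 20 libraries), a relative of a citric acid cycle enzyme subunit, Csdc2 (0.965) and Efnb3 (0.962), an ephrin ligand. After group means were removed these fell to 0.371, 0.0393 and 0.112. Myotilin is also made in skeletal muscle, and 12 fast skeletal muscle markers were examined, none of them without a count. Their summed level was 50.4 to 68.6 CPM in GRflox and 75.2 to 100 CPM in CardioGRKO at ZT0, and 56.8 to 79.8 against 76.1 to 103 CPM at ZT12. Of the 6 that passed the filter, 3 were higher, 1 lower and 2 not called in CardioGRKO at each time. The shares of all tested genes were 7.36% higher and 7.35% lower at ZT0, and 10.4% and 10.7% at ZT12. The part of these markers in the level of Myot was not tested.

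**Figure D4:**
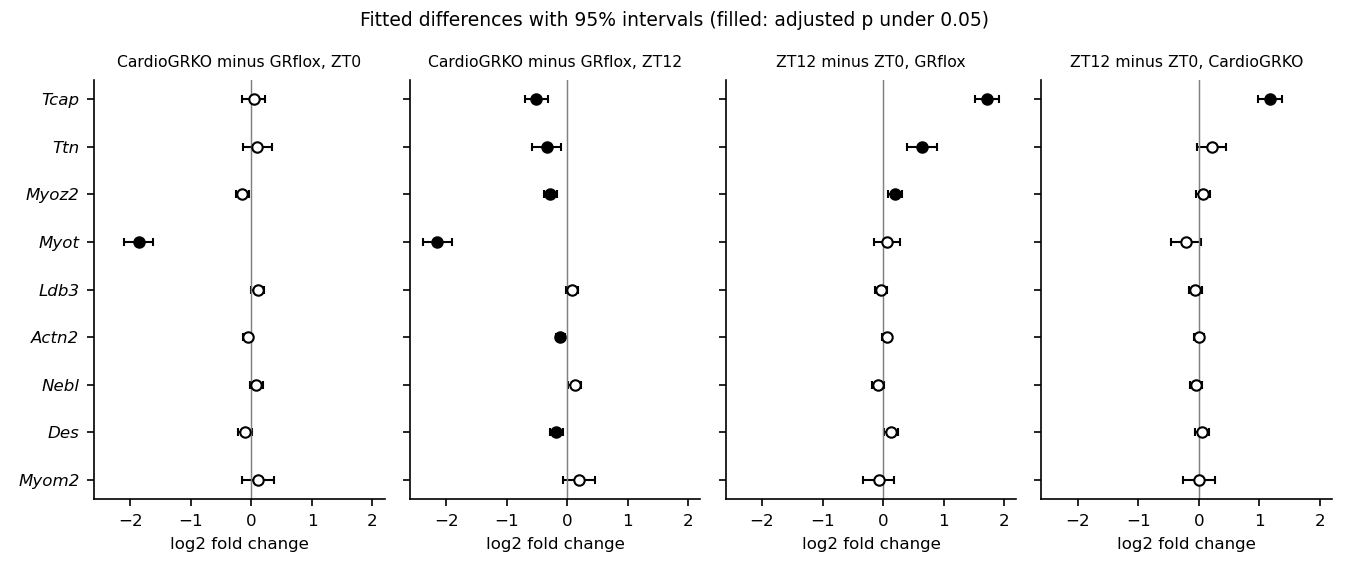
Log2 fold change (x axes) with its 95% interval for each of the 9 genes (y axis) in 4 comparisons, one panel each; filled points have an edgeR adjusted p under 0.05. Myot stands at -1.86 and -2.15 in the genotype panels, and Tcap at 1.72 and 1.17 in the time panels.

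Actn2 and Des, the alpha-actinin crosslinker and the intermediate filament, differed by genotype at ZT12 by small amounts. At ZT12 Actn2 was 3529, 3457, 3544, 3550.0 and 3604 CPM in GRflox and 3206, 3210.2, 3248, 3436 and 3211 CPM in CardioGRKO, with no overlap. The log2 fold change was -0.12 ± 0.04 (edgeR adjusted p = 0.0245), a change of -7.77%. Without GRflox ZT12 replicate 5 or CardioGRKO ZT12 replicate 1 or 5 it missed the threshold (edgeR adjusted p from 0.0511 to 0.0574). It also missed it without the filter on low counts (0.0666), with only the groups compared (0.061) and with library totals (0.555). Under marker scaling its direction was reversed (0.06). At ZT0 it ranged from 3331 to 3498 CPM in GRflox and from 3032 to 3451 CPM in CardioGRKO and was not called (-0.06 ± 0.04, edgeR adjusted p = 0.308). It was not called over time in either genotype (0.06 ± 0.04 and 0.00 ± 0.04).

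Des lies on chromosome 1 at 75360292 to 75368579, and Actn2 on chromosome 13 at 12269426 to 12340732. At ZT12 Des was 3258, 3290.1, 3648, 3579.7 and 3435 CPM in GRflox and 3234, 2732, 2965, 3343 and 2920.4 CPM in CardioGRKO, and the groups overlapped. The log2 fold change was -0.18 ± 0.05 (edgeR adjusted p = 0.0201). That call ended without GRflox ZT12 replicate 3 or 4 or CardioGRKO ZT12 replicate 2 or 5 (edgeR adjusted p from 0.0505 to 0.0669) and with library totals (0.213), and the value under marker scaling was 0.00. At ZT0 it was -0.11 ± 0.05 (adjusted p = 0.203). Over time Des had 0.13 ± 0.05 in GRflox (edgeR adjusted p = 0.115) and 0.06 ± 0.05 in CardioGRKO. The GRflox difference passed with only the groups compared (0.12, edgeR adjusted p = 0.0408). Over the 20 libraries Des correlated with Myoz2 (r = 0.820, and 0.537 after removing group means) and inversely with Nebl (-0.807, and -0.630).

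In the alpha-actinin family Actn1 (50.0 CPM) and Actn4 (193 CPM), the nonmuscle forms, were not called, and Actn3, the fast skeletal form, was under the filter. Of the other intermediate filament genes examined, Vim, Synm, Sync, Nes and Plec were not called between genotypes. Over time Vim rose (0.26 ± 0.07 and 0.25 ± 0.07) and Nes fell (-0.48 ± 0.09 and -0.46 ± 0.09) in GRflox and CardioGRKO. Among 19 partners of desmin and small chaperones, 2 were higher and 3 lower at ZT0, and 3 higher and 4 lower at ZT12, against 7.36% higher and 7.35% lower of all tested genes at ZT0 and 10.4% and 10.7% at ZT12. Dmd, dystrophin, which joins the cytoskeleton to the membrane at costameres, was lower by -1.17 ± 0.10 and -1.41 ± 0.10 (edgeR adjusted p = 4e-08 and 9.3e-10). The keratins Krt18 and Krt8, which are of low level in this tissue, were higher at ZT12 by 2.85 ± 0.42 and 2.31 ± 0.48 (edgeR adjusted p = 2e-05 and 0.001).

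Ldb3, Nebl and Myom2 were called in none of the comparisons by edgeR with TMM. Ldb3, on chromosome 14 at 34526699 to 34590314, ranged from 1824 to 2282 CPM over the 20 libraries, and its genotype differences were 0.10 ± 0.05 at ZT0 and 0.08 ± 0.05 at ZT12 (edgeR adjusted p = 0.194 and 0.298). Nebl, on chromosome 2 at 17342673 to 17734949, ranged from 107 to 142 CPM, with 0.08 ± 0.05 and 0.12 ± 0.05 (edgeR adjusted p = 0.313 and 0.0874). Under marker scaling both were higher in CardioGRKO at ZT0 (0.22 and 0.20) and at ZT12 (0.26 and 0.30), past the threshold each time. Myom2, on chromosome 8 at 15057653 to 15133420, ranged from 1389 to 2629 CPM and had the widest spread between replicates of the 9 (biological coefficient of variation 14.2%). Its genotype differences were 0.11 ± 0.13 and 0.19 ± 0.13, with 95% intervals of -0.15 to 0.38 and -0.07 to 0.45, so shifts of that size were not detectable at this spread.

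In Ldb3's family of PDZ-LIM proteins, 2 of the other 6 were called between genotypes, in opposite directions. The shares of all tested genes were 7.36% higher and 7.35% lower at ZT0, and 10.4% and 10.7% at ZT12. Pdlim1 (78.4 CPM) was higher in CardioGRKO by 0.39 ± 0.06 at ZT0 and 0.31 ± 0.06 at ZT12 (edgeR adjusted p = 6.5e-05 and 0.00041). Pdlim4 (8.51 CPM) was lower by -0.85 ± 0.13 and -0.93 ± 0.13 (edgeR adjusted p = 6e-05 and 7.2e-06). Pdlim5, the most abundant of them at 750.02 CPM, was not called. In the nebulin family (Neb, Nebl, Nrap and Lasp1) log2 differences from ZT0 to ZT12 in GRflox ranged from -0.28 to 0.96. There 1 of the 4 rose and 1 fell, against 8.13% and 9.17% of all tested genes. Between genotypes none of the 4 was called at ZT0 (-0.15 to 0.60). At ZT12 only Lasp1 was called, lower by -0.18 ± 0.06 (edgeR adjusted p = 0.028), a call lost under marker scaling. Myom1, the main myomesin of the heart, was lower by -0.13 ± 0.03 and -0.19 ± 0.03 (edgeR adjusted p = 0.01 and 0.00014), also lost under that scaling, while Myom3 was not called.

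**Figure D5:**
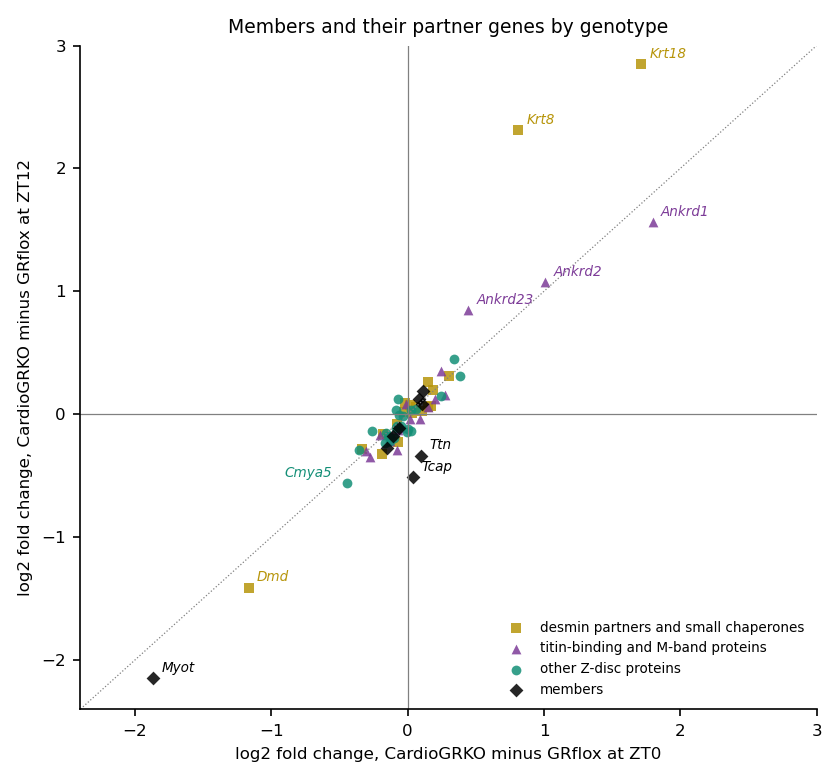
Log2 fold change of CardioGRKO minus GRflox at ZT0 (x axis) and at ZT12 (y axis) for the 9 genes and 3 lists of partner genes, 1 point per gene that passed the filter; the dotted line marks equal values. Most genes lie near 0, and Myot, Dmd, Ankrd1, Ankrd2, Krt8 and Krt18 lie farthest out.

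Of 25 other Z-disc proteins, 23 passed the filter. In CardioGRKO 3 were higher and 2 lower at ZT0, and 2 higher and 6 lower at ZT12, and the median log2 fold change was -0.07 and -0.11. The shares over all tested genes were 7.36% and 7.35% at ZT0 and 10.4% and 10.7% at ZT12. Cmya5 (myospryn), which binds alpha-actinin and desmin, was lower by -0.44 ± 0.07 and -0.56 ± 0.07 (edgeR adjusted p = 5.7e-05 and 1.3e-06). Flnc, the filamin that binds myotilin and myozenins, was higher by 0.45 ± 0.11 at ZT12 (edgeR adjusted p = 0.0039). Nexn, an F-actin binding protein of the Z-disc, was lower at ZT12 by -0.23 ± 0.06 (edgeR adjusted p = 0.0054), a call lost under marker scaling. With that scaling the ZT12 count was 7 higher and 1 lower, and with library totals 3 higher and 1 lower.

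Over the day, 3 of 9 members rose from ZT0 to ZT12 in GRflox (Tcap, Ttn and Myoz2), with no overlap of libraries, against 8.13% of all tested genes rising and 9.17% falling. Of all tested genes, 5.93% were higher at ZT12 in GRflox without overlap. In CardioGRKO 1 of 9, Tcap, rose, against 4.42% rising and 4.75% falling. The medians of the 9 were 0.07 and 0.00, and those of all tested genes 0.01 and 0.00. No member passed as an interaction in edgeR, against 0.186% of all tested genes. At an unadjusted p under 0.05 there were 2, Tcap and Ttn, against 5.99% of all tested genes, and DESeq2 called 1, Tcap, against 0.493%. Each group of libraries enters both a genotype comparison and a time comparison, so these comparisons are not independent of each other. Scaling moved the balance of calls here as well: 47.0% of the calls over time in GRflox were higher with TMM, 36.0% with library totals and 33.4% with markers. In CardioGRKO the share was 48.2% with TMM and 59.1% with markers, and for the interaction 34.6% with TMM, 55.9% with library totals and 50.0% with markers.

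Among the 23 other Z-disc proteins tested, 1 rose and 5 fell from ZT0 to ZT12 in GRflox, against 8.13% and 9.17% of all tested genes. In CardioGRKO 4 were called, all lower at ZT12, against 4.75% of all tested genes lower. Murc, a caveolar protein of the Z-disc, fell in both genotypes, with -0.41 ± 0.06 (GRflox, edgeR adjusted p = 5.7e-05) and -0.30 ± 0.06 (CardioGRKO, 0.0037). Nexn fell by -0.29 ± 0.06 and -0.36 ± 0.06 (edgeR adjusted p = 0.0012 and 0.00024), and Lasp1 by -0.28 ± 0.06 and -0.31 ± 0.06. Palld was the one that rose in GRflox (0.25 ± 0.06, edgeR adjusted p = 0.0066). Among 19 desmin partners and chaperones, 3 rose in GRflox and 1 fell, against the same shares of 8.13% and 9.17%. The small chaperone Hspb7 rose there by 0.32 ± 0.06 (edgeR adjusted p = 0.00047).

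Of 15 cardiac transcription factors, 5 were called at ZT0, all lower (7.35% of all tested genes were), and 6 were lower and 2 higher at ZT12 (10.7% and 10.4% of all). With markers as the scale these were 2 lower at ZT0, and 3 lower and 5 higher at ZT12. Gata6 was lower by -0.37 ± 0.05 both times. Mef2c, a factor that binds the MEF2 motif, was lower by -0.22 ± 0.05 at ZT0 (edgeR adjusted p = 0.0054), a call lost under marker scaling. Gata4 was higher at ZT12 by 0.45 ± 0.06 (edgeR adjusted p = 7.2e-06) and fell from ZT0 to ZT12 in GRflox (-0.51 ± 0.06). The coactivator Ppargc1a was lower at ZT12 by -0.64 ± 0.09 (edgeR adjusted p = 1.8e-05). No link between these factors and the members was tested.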

How the data were processed

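Left ventricular RNA was sequenced as poly(A)-enriched, paired-end libraries with reads of 75 bases, per the labels' protocols. The authors deposited raw counts, one whole number for each gene line. Per the submitters' processing notes, the authors' tools were DESeq2 1.38.3, STAR 2.5.1 and Subread 1.5.1 (featureCounts), on mm10. The sources used here do not give the strand setting, the treatment of multi-mapped reads or the annotation release. Groups came from each library's labels.

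Lines of 1 gene were summed by Entrez identifier. Genes were kept by filterByExpr (minimum count 10, minimum total 15). One group-means model was fitted to all 20 libraries with edgeR 4.0.16 in R 4.3.3 (TMM, quasi-likelihood F-test, Benjamini-Hochberg over 14007 genes, threshold 0.05). Each SE was obtained as log2 change divided by the root of F. The code was tested on simulated data. Alternatives were RLE factors, library totals, no filter, DESeq2 1.42.0, a replicate block, only the groups compared, scaling to 12 cardiomyocyte markers and leaving out each library. Exon lengths are from GENCODE M21, and gene positions and upstream sequences from RefSeq's GRCm38.p6. Figures used matplotlib 3.10.9.

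The members, the gene lists and the naming rule were chosen with earlier results of these data known. The rule names all members and family genes, up to 4 genes of smallest p per other list and comparison, and 3 genes most alike each member (mean log2 CPM of at least 1, provisional names passed over). Genes overlapping a member could share its reads: Des with Gm15179 (237 counts in all libraries) and Nebl with Mir6419 (0 counts). Results of 1 gene under the naming rule are left out.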

Additional observations from a re-analysis of the deposited data

Results flagged for a closer look

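Of 36 sets of 5 libraries (9 genes in 4 groups), 2 had a library set apart by Dixon's test, which flags about 1 in 20 by chance. Actn2 in CardioGRKO ZT12 replicate 4 was 3436 CPM (3435.5), above the other 4 libraries at 3206 to 3248 CPM, with a ratio of the gap to the range, taken on log2 CPM, of 0.812. It was the library nearest to GRflox in that group. Ttn in CardioGRKO ZT0 replicate 5 was 5489 CPM (5489.2), against 3401 to 3904 CPM in the other 4, with a ratio on log2 CPM of 0.712. Without it the Ttn difference between genotypes at ZT0 was -0.03 in place of 0.10, and its rise in CardioGRKO passed the threshold (0.34, edgeR adjusted p = 0.0442).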

How the results depend on the processing

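The number of members called between genotypes at ZT0, 1 with TMM and edgeR, was 2 with library totals (Ldb3 added), DESeq2, a replicate block or only the groups compared (Myoz2 added), 3 with marker scaling, and 1 to 2 when any 1 library was left out. Over all genes it moved from 2060 to 3189 with marker scaling, and at ZT12 from 2951 to 6182. The interaction gave 0 members and 26 genes, against 1 and 69 with DESeq2, and 0 to 1 members and 16 to 33 genes with a library left out; the lowest counts came without GRflox ZT0 replicate 2 (17) or 4 (17), GRflox ZT12 replicate 4 (17) or CardioGRKO ZT12 replicate 1 (16). Members called over time in CardioGRKO numbered 1 to 2 with a library left out. The cause of these moves was not tested.

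Directions turned with marker scaling for Actn2 (0.058 at ZT0, 0.063 at ZT12, interaction 0.0050), Des (0.014 and 0.0023) and the Ldb3 interaction (0.039; 0.015 with library totals). Over time in CardioGRKO, Actn2 was -0.0021 with RLE factors, -0.0019 without the filter, -0.0025 with DESeq2 and -0.00092 with only the groups compared, and Myom2 -0.0033, -0.0027, -0.0034 and -0.0023, with -0.029 under the block. With a library left out, values ranged over 0 for Tcap at ZT0 (-0.015 to 0.093), Ttn at ZT0 (-0.035 to 0.184), Actn2 and Myom2 over time in CardioGRKO (-0.028 to 0.015 and -0.109 to 0.106), and the interactions of Ldb3 (-0.056 to 0.012), Nebl (-0.013 to 0.064) and Myom2 (-0.031 to 0.184). None of the turned values was called. Of the results named here, only Actn2 and Des at ZT12 were called by edgeR with TMM on all libraries, both lower.

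Replicate numbers gave no clear pairing of the libraries, though weak pairing was not tested against chance. The deviations of 30 same-numbered pairs correlated from -0.272 to 0.234 (median 0.029, against -0.005 for pairs of unlike number). Of 20 libraries, 7 correlated best with their own number. With the replicate block, 2194 and 3111 genes were called between genotypes at ZT0 and ZT12, against 2060 and 2951 without it.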
